A study of Homo sapiens with 12 samples.

Results

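The genes described here are the 3 sensors of the unfolded protein response and 7 genes of the ATF4-CHOP branch, 10 of the 59276 features in the deposited table. The sensors are ERN1 (IRE1α), EIF2AK3 (PERK) and ATF6. The branch is represented by 2 transcription factors, ATF4 and DDIT3 (CHOP), and by 5 targets and effectors, TRIB3, CHAC1, PPP1R15A, SESN2 and DDIT4. Members were taken by gene symbol, and all 10 were among the 11939 features with a TPM of 1 or more in 3 or more libraries. TPM values are length-corrected shares of the transcripts of a library, set to the same total in each library.

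Total RNA of MM1S cells, a human multiple myeloma line that secretes an immunoglobulin light chain, was sequenced in 12 libraries. There were 3 libraries of cells at day 0 (H1 to H3) and 3 each after 2 days (H4 to H6), 3 days (H7 to H9) and 5 days (H10 to H12) of exposure to NGI-1 at 10 μM. NGI-1 inhibits the oligosaccharyltransferase (OST) complex. The day 0 libraries carry the treatment label NGI-1 as well and were taken as untreated because the study calls them its control, so time in culture and treatment cannot be told apart. No label says whether the 3 libraries of a group came from separate cultures, so p-values rest only on these libraries, whose spread within a group may be technical.

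The OST complex attaches sugar chains to asparagines of proteins entering the endoplasmic reticulum (ER). When unfolded protein collects in the ER, ERN1 cuts the XBP1 transcript, ATF6 moves to the Golgi and is cleaved into a transcription factor, and EIF2AK3 phosphorylates the translation factor eIF2α. That phosphorylation slows translation in general but favours translation of ATF4, which switches on DDIT3 and, with it, genes of amino acid supply, feedback and cell death. Plasma cells and myeloma cells secrete much immunoglobulin and are known to rely on this response. The splicing of XBP1, the cleavage of ATF6 and the translation of ATF4 are steps that a table of gene-level transcript shares does not show.

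In the plot of changes on both scales and throughout the text, a gene was called higher or lower when limma's moderated test gave a Benjamini-Hochberg adjusted p under 0.05 over all 11939 tested features and the log2 fold change was over 0.5 in size. Log2 fold changes are on the log2(TPM + 1) scale, which understates the change of genes with low values. The composition of the libraries moved with treatment. Ribosomal protein transcripts took 28.5% to 29.6% of the TPM in untreated libraries, 33.7% to 34.3% at day 2, 40.5% to 44.6% at day 3 and 47.8% to 49.4% at day 5, and mitochondrially encoded transcripts took 9.33% to 10.7% in untreated libraries and 13.4% to 14.7% at day 5. Over the 11939 features the median change was -0.18 (log2) at day 2, -0.73 at day 3 and -0.99 at day 5. Calls of the 10 genes are therefore given on the deposited scale and on a rescaled one, in which each library was multiplied by a single factor that brought its median log2 deviation to 0 over the 5433 features that averaged 10 TPM or more. After rescaling the medians were 0.01, -0.03 and -0.02. In bulk libraries fewer cells of a kind and less RNA per cell cannot be told apart, and absolute RNA amounts were not analysed here. Library H8 of day 3 and library H12 of day 5 had the lowest ribosomal protein shares of their groups. All 9 plasma cell markers passed the filter, with JCHAIN at a mean of 9697 TPM in untreated cells. JCHAIN and TNFRSF17 (1.85 at day 5 as deposited) were called higher on all 3 days on both scales. SDC1 was called lower at day 3 and day 5 on both (-1.48 and -1.79 as deposited), and XBP1 at day 5. As deposited 4, 2 and 2 of the 9 were called higher on the 3 days and 1, 4 and 6 lower. Of all features 8.03%, 7.59% and 7.73% were called higher and 23.2%, 61.5% and 69.8% lower. After rescaling 5, 5 and 3 were called higher and 0, 1 and 2 lower. The shares were then 12.9%, 23.9% and 27.5% higher and 11.4%, 24.2% and 26.9% lower. Of 11 markers of other cells only CD3E and PECAM1 passed the filter, at means of 2.998 and 5.54 TPM in untreated cells, and CD3D and EPCAM were listed at 0 in every library. CD3E, a T cell receptor subunit, was called higher at day 2 and day 3 on both scales (0.86 and 0.75 as deposited), and PECAM1 was called lower at day 3 and day 5 as deposited (-0.59 and -1.28) but not after rescaling. Their part in the results was not tested.

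Of the 10 genes, 4 were called higher after 2 days of NGI-1 on the deposited scale (ERN1, EIF2AK3, DDIT3 and PPP1R15A) and none lower, against 8.03% of all tested features called higher and 23.2% called lower. After rescaling 6 were called higher, with ATF4 and SESN2 added, against 12.9% higher and 11.4% lower over all features. At day 3 DDIT3 alone was called higher on the deposited scale and TRIB3, CHAC1 and DDIT4 were called lower, where 7.59% of features were called higher and 61.5% lower. At day 5 DDIT3 was again the single member called higher and EIF2AK3, ATF6, CHAC1 and DDIT4 were called lower, where the shares over all features were 7.73% and 69.8%. After rescaling none of the 10 was called lower at either day. Then 5 were called higher at day 3 (background 23.9% higher, 24.2% lower) and 8 at day 5 (background 27.5% higher, 26.9% lower). The median over the 10 members was 0.46, -0.27 and -0.29 at day 2, day 3 and day 5 on the deposited scale and 0.67, 0.54 and 0.81 after rescaling. All 3 days are compared with the same untreated libraries.

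**Figure D1:**
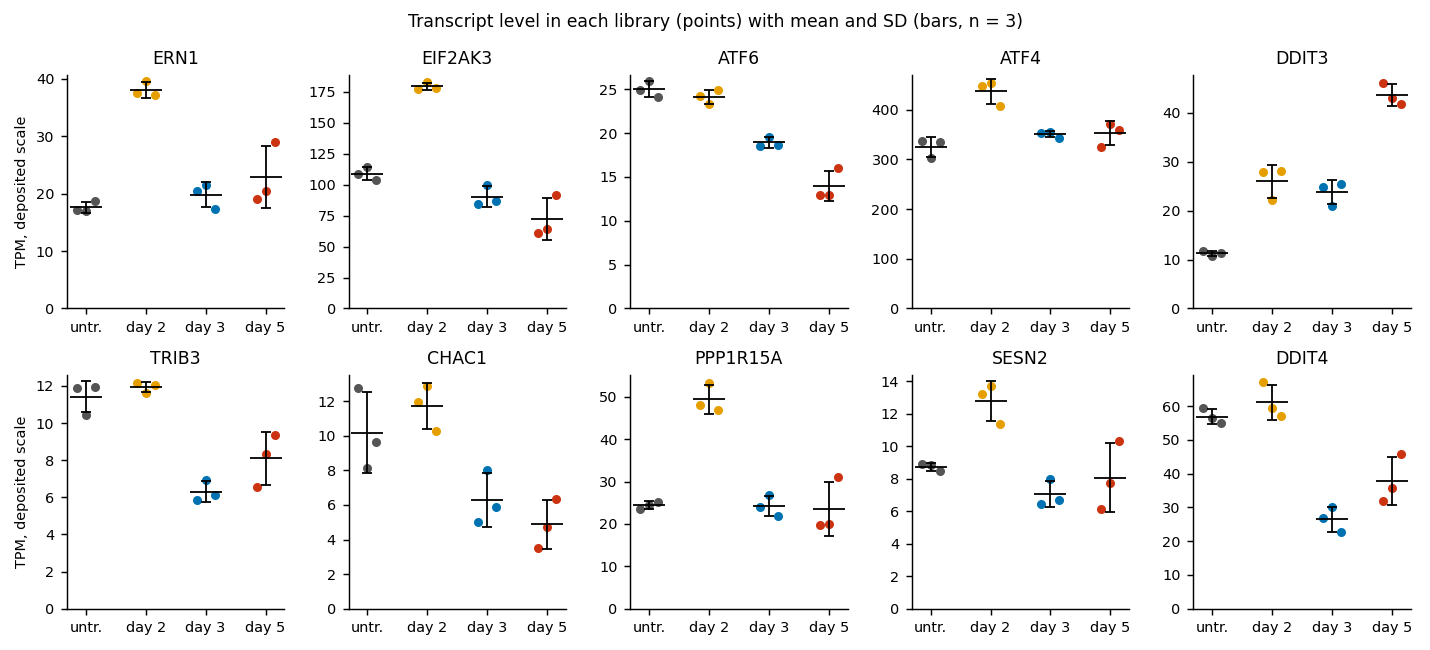
TPM of the 10 genes on the deposited scale (vertical axes, each starting at 0) in the untreated, day 2, day 3 and day 5 libraries (points), with mean and SD of 3 libraries (bars). DDIT3 climbs from a mean of 11.3 to 43.6 TPM at day 5, while ERN1, EIF2AK3, PPP1R15A and SESN2 peak at day 2.

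**Figure D2:**
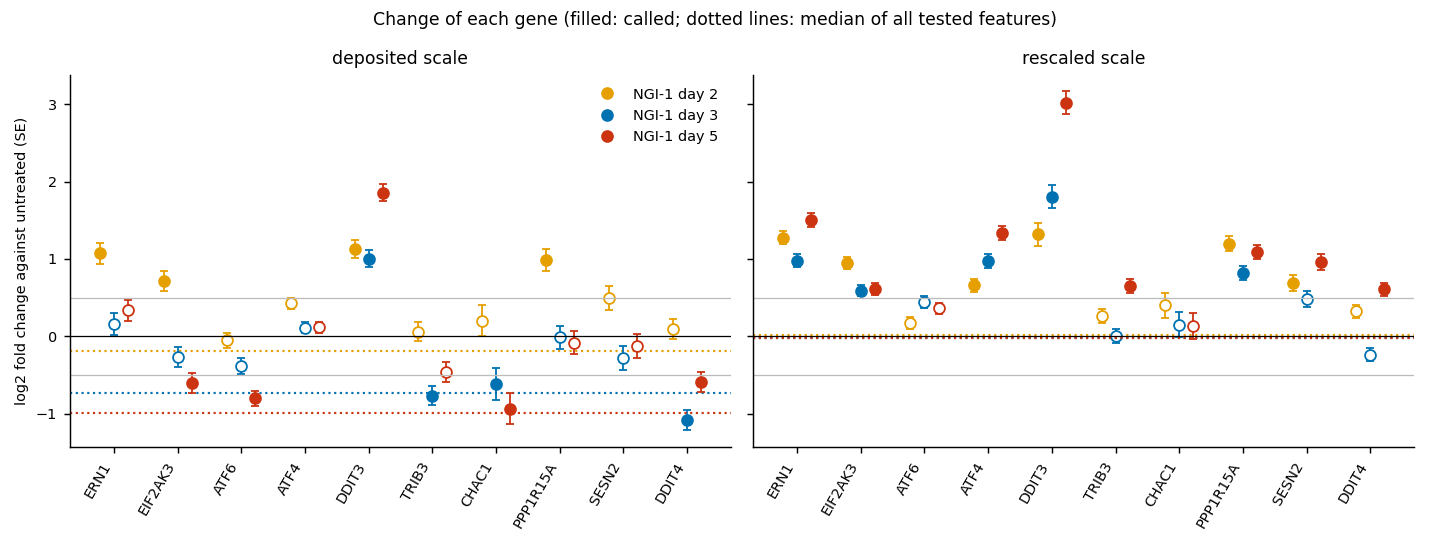
Log2 fold change of each gene against untreated cells with its standard error, on the deposited scale (left) and after rescaling (right), for day 2, day 3 and day 5. Filled points were called, grey lines mark 0.5 in either direction, and dotted lines mark the median of all tested features of that day (-0.18, -0.73 and -0.99 on the left); DDIT3 stands highest on each day in both panels.

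Regulatory sequence is shown for the 2 members whose promoter window held a motif of this response, beside 2 genes that are well-known targets of this response. Windows of 300 bases, 250 before and 50 after each RefSeq start site, were taken from RefSeq on GRCh38.p14 and searched on both strands for the ATF4 composite site TGATGNAA, the cAMP response element TGACGTCA, the XBP1 and ATF6 element TGACGTGG, and the ER stress element, which is CCAAT and CCACG with 9 bases between them. All 10 members matched by symbol, with 14 windows in all. Capitals mark the motif, and each sequence is 30 bases, read 5′ to 3′ in the direction of the gene.

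PPP1R15A: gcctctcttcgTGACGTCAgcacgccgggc
CHAC1: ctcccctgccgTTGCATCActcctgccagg
ASNS: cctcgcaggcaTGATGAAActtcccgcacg
HSPA5: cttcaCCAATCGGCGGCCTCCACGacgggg

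The PPP1R15A stretch (chr19:48872352-48872381, plus strand) carries a cAMP response element 58 to 51 bases before the start site, and this motif reads the same on both strands. The CHAC1 stretch (chr15:40953251-40953280, plus strand) carries the ATF4 composite site on the strand opposite the gene, 209 to 202 bases before the start site used by RefSeq, inside an exon of longer CHAC1 transcripts in GENCODE release 29. The ASNS stretch (chr7:97872458-97872487, minus strand) has the same site 68 to 61 bases before its start, inside an annotated ASNS exon, and the HSPA5 stretch (chr9:125241385-125241414, minus strand) has an ER stress element 66 to 48 bases before its start. Of 35116 windows over all RefSeq genes, 3.62% held the ATF4 composite site, 1.85% the cAMP response element, 0.729% the XBP1 and ATF6 element and 0.0769% the ER stress element. No member window held the XBP1 and ATF6 element or the ER stress element. A match is a run of letters and not a measured binding site, and a window without it says nothing of the factor.

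Among the sensors, ERN1 and EIF2AK3 were called higher at day 2 on both scales, while ATF6 was not called at day 2 on either. ERN1 encodes the kinase and ribonuclease IRE1α (chr17:64039142-64130819, minus strand, GRCh38). It stood at 17.1, 17.0 and 18.7 TPM in the untreated libraries and at 37.5, 39.6 and 37.1 TPM at day 2, with no overlap. The day 2 log2 fold change was 1.07 (SE 0.14, adjusted p = 3.55e-05 from limma) on the deposited scale and 1.28 (SE 0.08) after rescaling. By day 3 the libraries were at 20.5, 21.6 and 17.3 TPM, which overlapped the untreated range, and by day 5 at 19.1, 20.5 and 28.96 TPM, all above it. On the deposited scale neither day was called, at 0.16 and 0.34, whereas after rescaling both were, at 0.98 and 1.504. Library H12 held the 28.96 TPM, and without it the deposited change of ERN1 at day 5 was the lowest of the leave-one-out fits, at 0.16.

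EIF2AK3, the kinase PERK (chr2:88556741-88627576, minus strand), was the most abundant sensor transcript in every group. It measured 108.5, 114 and 104 TPM in untreated libraries and 177, 183 and 178 TPM at day 2. The day 2 change was 0.72 (SE 0.13, adjusted p = 0.000479 from limma) on the deposited scale and 0.95 after rescaling, and the groups did not overlap. Later libraries lay below the untreated ones on the deposited scale, at 84.8, 99.9 and 86.8 TPM at day 3 (-0.27, not called) and 61.3, 64.0 and 91.7 TPM at day 5. The day 5 difference was -0.61 and called lower on the deposited scale but 0.61 and called higher after rescaling, so its direction depends on the scaling. Without ribosomal protein and mitochondrial features it was 0.11 and not called. Both antisense features that overlap EIF2AK3 exons stayed at or under 0.654 TPM.

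ATF6, the membrane-bound precursor of a transcription factor (chr1:161766294-161964070, plus strand), did not show the day 2 peak seen as deposited in ERN1 and EIF2AK3. After rescaling ERN1 averaged 29.8 TPM at day 2 and 35.2 TPM at day 5, so its peak depends on the scaling. The untreated ATF6 values of 25.0, 26.0 and 24.1 TPM overlapped those of day 2, at 24.2, 23.3 and 24.9 TPM. Values were 18.6, 19.6 and 18.6 TPM at day 3 (-0.39, not called) and 12.99, 12.95 and 15.99 TPM at day 5. The day 5 change of -0.80 (SE 0.10, adjusted p = 3.63e-06 from limma) was called lower on the deposited scale and lay near the median of all features, -0.99, with 41.45% of the features changed to a higher value than ATF6. After rescaling ATF6 changed by 0.17, 0.44 and 0.36 on the 3 days and passed the fold threshold on none of them.

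Ratios of 2 genes in 1 library do not depend on how the library was scaled, and 8 were compared between the 9 treated and 3 untreated libraries by an exact two-sided permutation test over all 220 choices of 3 libraries, with Benjamini-Hochberg adjustment over the 8. Day 2, day 3 and day 5 were pooled as treated, so differences between these days also enter the p-values. The smallest p this allows is 0.00455. The log2 ratio of ERN1 to EIF2AK3 was higher under NGI-1 by 0.60 (exact permutation p = 0.00909, adjusted 0.0145), above every untreated library in 9 of 9. In linear terms it averaged 0.162 ERN1 transcripts per EIF2AK3 transcript in untreated cells, 0.212 at day 2, 0.219 at day 3 and 0.316 at day 5. The ratio of ATF6 to EIF2AK3 was lower by 0.38 (exact permutation p = 0.0455, adjusted 0.0455), below every untreated library in 9 of 9, and its deepest point was day 2, at 0.134 against 0.230 in untreated cells. That call was lost with a pseudocount of 1 (adjusted p = 0.0682) and in 7 of the 12 tests that left out a library, namely H1 to H6 and H12 (adjusted p up to 0.104). The ERN1 call was lost without H1 or H2 (adjusted p = 0.0727 for each).

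DDIT3 was called higher on all 3 days on both scales, and ATF4 on all 3 days only after rescaling. ATF4, the transcription factor at the head of the branch (chr22:39519695-39522685, plus strand), is known to be controlled mainly by translation. Its transcript was the most abundant of the 10 genes in every group. It measured 338, 302 and 334 TPM in untreated libraries, 449, 455 and 407 TPM at day 2, 353, 355 and 344 TPM at day 3, and 325, 372 and 360 TPM at day 5. Only the day 2 and day 3 libraries all lay above the untreated range. The deposited changes of 0.43, 0.11 and 0.12 were under the fold threshold, although the day 2 one had an adjusted p of 0.000463 from limma, and the rescaled changes were 0.66, 0.98 and 1.34. Reads of its 3 processed pseudogenes in the table were low, at or under 0.531 TPM in any library.

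DDIT3 encodes CHOP, a transcription factor known for promoting cell death under lasting ER stress (chr12:57516588-57521737, minus strand). Untreated libraries held 11.9, 10.8 and 11.3 TPM. Day 2 libraries held 27.9, 22.2 and 28.1 TPM, day 3 libraries 24.8, 21.0 and 25.5 TPM, and day 5 libraries 46.1, 43.1 and 41.8 TPM. No treated library overlapped the untreated ones, and no day 5 library overlapped those of day 2 or day 3. On the deposited scale DDIT3 rose by 1.13 (SE 0.11, adjusted p = 3.78e-06), 1.005 (adjusted p = 2.20e-06) and 1.86 (adjusted p = 3.16e-09) at day 2, day 3 and day 5, all from limma, or 2.30-, 2.10- and 3.86-fold by mean TPM. After rescaling the rises were 1.32, 1.80 and 3.02. At day 5 only 0.787% of the tested features changed to a higher value on the deposited scale. Leaving out any library kept the day 5 change between 1.82 and 1.89. DDIT3 exons overlap those of MARS1 and MBD6 on the opposite strand, and no strand setting is given in the sources used here, so reads in those stretches cannot be assigned with certainty. MARS1 averaged 145.8, 134 and, at day 3 and day 5, 70.25 and 60.9 TPM, called lower at those 2 days on the deposited scale (-1.04 and -1.28) and on neither after rescaling (-0.18 and -0.07). MBD6 did not exceed 6.71 TPM.

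Per ATF4 transcript, DDIT3 became more abundant. The log2 ratio of DDIT3 to ATF4 was 1.19 higher under NGI-1 (exact permutation p = 0.00909, adjusted 0.0145), with 9 of 9 treated libraries above every untreated one. The linear ratio averaged 0.0348 in untreated cells, 0.0593 at day 2, 0.0675 at day 3 and 0.124 at day 5. Against HSPA5 (BiP), the abundant ER chaperone, the gain was larger, at 2.20 (exact permutation p = 0.0136, adjusted 0.0182). DDIT3 stood at 0.0502 transcripts per HSPA5 transcript in untreated cells, 0.0924 at day 2, 0.214 at day 3 and 0.617 at day 5. HSPA5 itself averaged 225 TPM untreated, 280.3 at day 2, 111 at day 3 and 71.7 at day 5. The call of this ratio was lost without H1 or H2 (adjusted p = 0.0582 for each).

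**Figure D3:**
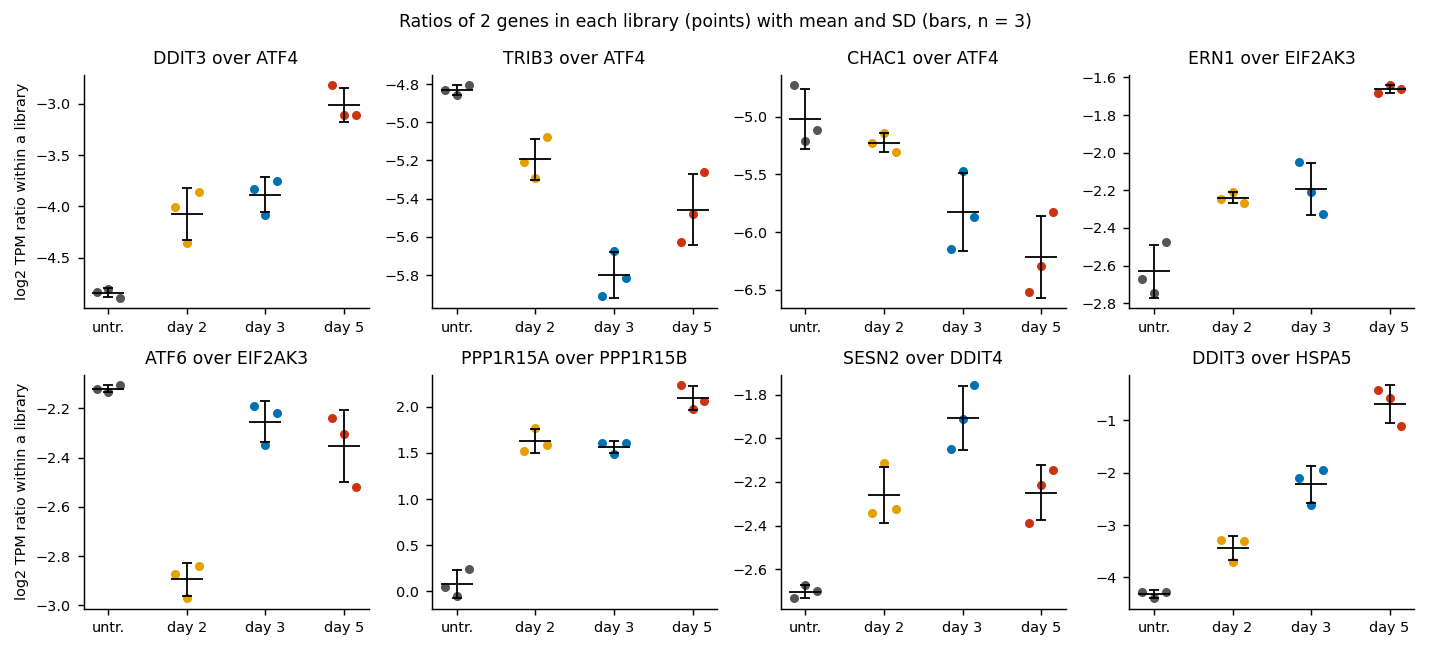
Log2 TPM ratio of 2 genes within each library (points) with mean and SD of 3 libraries (bars), for untreated, day 2, day 3 and day 5 cells. DDIT3 over ATF4 and over HSPA5 is highest at day 5, TRIB3 over ATF4 is lowest at day 3, and ATF6 over EIF2AK3 is lowest at day 2.

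The 5 targets and effectors split. PPP1R15A was called higher at day 2 on both scales, while TRIB3, CHAC1 and DDIT4 were called on no day on the deposited scale except as lower. PPP1R15A encodes GADD34, which brings protein phosphatase 1 to phosphorylated eIF2α and so ends the translational block (chr19:48872392-48876057, plus strand). It went from 23.5, 24.5 and 25.3 TPM in untreated libraries to 48.03, 53.3 and 46.8 TPM at day 2, a log2 fold change of 0.99 (SE 0.15, adjusted p = 0.000130 from limma). Values overlapped the untreated ones on the deposited scale at day 3, at 23.97, 26.8 and 21.98 TPM, and at day 5, at 19.7, 19.9 and 31.0 TPM. The changes at these days were -0.01 and -0.08 on the deposited scale but 0.82 and 1.09, both called higher, after rescaling.

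Its constitutive counterpart PPP1R15B, which serves the same phosphatase, fell in mean TPM from day to day on the deposited scale. On that scale PPP1R15A was higher at day 2 and near its untreated level at day 3 and day 5. PPP1R15B averaged 23.2 TPM in untreated cells, 16.0 at day 2, 8.23 at day 3 and 5.56 at day 5, and it was called lower at day 3 and day 5 on both scales. The log2 ratio of PPP1R15A to PPP1R15B rose by 1.68 under NGI-1 (exact permutation p = 0.00455, the smallest possible, adjusted 0.0121). The pair was near equal in untreated cells, at 0.964 to 1.19 PPP1R15A transcripts per PPP1R15B transcript, and reached 2.87 to 3.41 at day 2, 2.80 to 3.04 at day 3 and 3.93 to 4.69 at day 5.

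TRIB3, a pseudokinase that feeds back on ATF4 and DDIT3 (chr20:362835-397559, plus strand), was not called higher on the deposited scale on any day. It measured 11.87, 10.4 and 11.95 TPM untreated and 12.1, 11.6 and 12.04 TPM at day 2, which overlap. At day 3 it was at 5.86, 6.95 and 6.12 TPM and at day 5 at 6.58, 8.32 and 9.38 TPM, all under the untreated range. The day 3 change of -0.77 (SE 0.13, adjusted p = 8.14e-05 from limma) was called lower on the deposited scale but was 0.01 after rescaling, and day 5 was -0.46 and not called on the deposited scale and 0.65 and called higher after rescaling. Relative to ATF4, TRIB3 was lower by 0.65 on the log2 scale (exact permutation p = 0.00455, adjusted 0.0121) in 9 of 9 treated libraries.

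CHAC1, which degrades glutathione and is widely used as a readout of ATF4 (chr15:40952962-40956519, plus strand), was the most variable member among untreated libraries. It was at 12.8, 8.15 and 9.62 TPM untreated and at 11.96, 12.9 and 10.3 TPM at day 2. At day 3 it was at 4.99, 8.02 and 5.90 TPM and at day 5 at 3.54, 4.75 and 6.36 TPM, below every untreated library. The deposited changes of -0.61 and -0.93 at these days were called lower, and after rescaling they were 0.15 and 0.13 and not called. The day 3 call was lost without H1 or H7 (-0.45 and -0.48). Per ATF4 transcript, CHAC1 was lower by 0.74 (exact permutation p = 0.0318, adjusted 0.0364), below all untreated libraries in 8 of 9, and this call was lost when any 1 untreated library was left out (adjusted p of 0.0727 to 0.127).

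SESN2 and DDIT4 (REDD1) are both stress-induced restraints on mTORC1, the growth-promoting kinase complex. SESN2 (chr1:28259527-28282491, plus strand) measured 8.93, 8.83 and 8.45 TPM untreated and 13.2, 13.7 and 11.4 TPM at day 2, without overlap. Its day 2 change of 0.496 (SE 0.15, adjusted p = 0.0182 from limma) fell just short of the fold threshold on the deposited scale and was 0.69 and called higher after rescaling. At day 3 it was at 6.47, 7.98 and 6.70 TPM, below the untreated range but not called (-0.28), and at day 5 at 6.11, 7.73 and 10.3 TPM, which overlaps it. After rescaling these days were 0.48, not called, and 0.96, called higher.

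DDIT4 (chr10:72273920-72276036, plus strand) stood at 59.3, 56.3 and 54.9 TPM untreated and at 67.0, 59.3 and 56.9 TPM at day 2, which overlap. At day 3 it was at 26.8, 30.02 and 22.7 TPM, the lowest DDIT4 values of the 4 groups, and at day 5 at 32.0, 35.9 and 45.7 TPM. The day 3 change was -1.08 (SE 0.13, adjusted p = 4.60e-06 from limma) on the deposited scale and -0.24, not called, after rescaling. At day 5 it was -0.59, called lower on the deposited scale, but 0.61, called higher, after rescaling, and the deposited call was lost without H10 (-0.48). The log2 ratio of SESN2 to DDIT4 was higher under NGI-1 by 0.56 (exact permutation p = 0.00455, adjusted 0.0121) in 9 of 9 libraries. DDIT4-AS1, on the opposite strand, stayed at or under 0.368 TPM.

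From day 2 to day 3, on the deposited scale, 7 members were called lower and none higher, where 3.22% of all features were called higher and 55.5% lower, and after rescaling DDIT4 alone was lower (background 14.3% higher, 13.6% lower). DDIT4 changed by -1.18 on the deposited scale (adjusted p = 9.51e-06) and by -0.56 after rescaling (adjusted p = 0.000174, both from limma). PPP1R15A, EIF2AK3 and ERN1 followed on the deposited scale with -0.999, -0.98 and -0.91. After rescaling these 3 changes were -0.38, -0.35 and -0.30, under the fold threshold. The DDIT3 difference was -0.12 on the deposited scale and 0.49 after rescaling, called on neither.

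From day 3 to day 5 DDIT3 was the single member called on the deposited scale, where 0.67% of features were called higher and 13.1% lower. It rose by 0.85 (SE 0.11, adjusted p = 0.000272 from limma), and 0.184% of features changed to a higher value. After rescaling its rise was 1.21, and ERN1 (0.53), TRIB3 (0.64) and DDIT4 (0.85) were called higher too, against 4.43% of features higher and 2.03% lower. The ATF4 difference was 0.01 on the deposited scale and 0.36 after rescaling, called on neither. DDIT4 was called higher on the deposited scale too when H7, H8, H10 or H11 was left out (0.50 to 0.60), and EIF2AK3 and ATF6 were called lower without H12 (-0.52 and -0.51).

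In untreated cells the transcript shares ran in the order ATF4 (325 TPM), EIF2AK3 (109), DDIT4 (56.9), ATF6 (25.0), PPP1R15A (24.4), ERN1 (17.6), TRIB3 (11.4), DDIT3 (11.3), CHAC1 (10.2) and SESN2 (8.73), all as mean TPM of 3 libraries. ATF6 and PPP1R15A overlapped, as did each neighbouring pair from TRIB3 down to SESN2. At day 5 DDIT3 had moved from 8th to 3rd place, at 43.6 ± 2.22 TPM (SD, n = 3), overlapping DDIT4 at 37.9 ± 7.06 TPM (SD, n = 3). CHAC1 had become the least abundant of the 10, at 4.88 ± 1.42 TPM (SD, n = 3).

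Of other genes that ATF4 is known to switch on, 37 were listed and 32 passed the filter. At day 2, 8 were called higher on both scales and none lower: the cystine and leucine transporter subunit SLC3A2, the glycine transporter SLC6A9, the glutamine transporter SLC38A2, the secreted factor INHBE, asparagine synthetase ASNS, the transsulfuration enzymes CBS and CTH, and PCK2. As deposited these 8 were the only ones called higher, and after rescaling there were 11. Of all features 8.03% as deposited and 12.9% after rescaling were called higher at day 2, and 23.2% and 11.4% lower. SLC3A2 rose most, from 124 TPM untreated to 431 TPM at day 2, with log2 fold changes of 1.79, 1.13 and 1.44 on the 3 days on the deposited scale and 2.02, 1.99 and 2.66 after rescaling. ASNS was at 92.1, 141, 116 and 118 TPM in the 4 groups, in order of day, called higher on the deposited scale at day 2 only (0.61) and on all 3 days after rescaling. Of the 32, on the deposited scale, 2 were called higher and 20 lower at day 3, and 3 higher and 20 lower at day 5, where 61.5% and 69.8% of all features were called lower. After rescaling there were 9 higher and 3 lower at day 3, and 13 higher and 3 lower at day 5, where 23.9% and 27.5% of all features were called higher and 24.2% and 26.9% lower. Called lower on both scales at both days were SLC7A5, the partner of SLC3A2 in leucine uptake, the glutamyl-prolyl-tRNA synthetase EPRS1 and the proline enzyme ALDH18A1. SLC7A5 went from 110.2 TPM untreated to 28.3 at day 3 and 25.2 at day 5. The list median was 0.10, -0.75 and -0.95 on the deposited scale, where all features had -0.18, -0.73 and -0.99, and 0.33, 0.05 and 0.17 after rescaling, where all features had 0.01, -0.03 and -0.02.

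**Figure D4:**
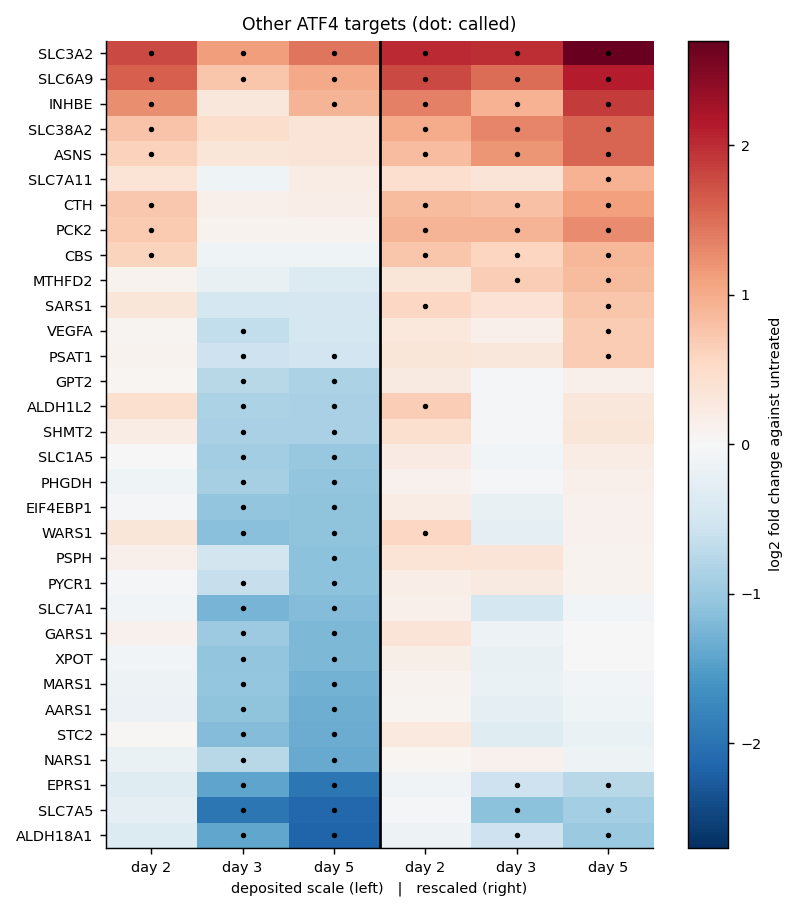
Log2 fold change against untreated cells (colour) of the 32 tested genes of the ATF4 target list at day 2, day 3 and day 5, on the deposited scale (left columns) and after rescaling (right columns), with a dot where the gene was called. SLC3A2 and SLC6A9 are called higher in all 6 columns, and ALDH18A1, SLC7A5 and EPRS1 are lower at day 3 and day 5 on both scales.

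Of 10 tested partner factors of the same leucine zipper class, JUN was called higher on all 3 days on both scales, from 1.18 TPM untreated to 4.14 TPM at day 5. At day 2, 2 of the 10 were called higher and 1 lower as deposited, where 8.03% and 23.2% of all features were. After rescaling 6 were called higher and none lower at day 2, where 12.9% and 11.4% of all features were. As deposited 1 of the 10 was called higher and 6 lower at day 3, and 2 and 6 at day 5. Of all features 7.59% and 7.73% were called higher at these days, and 61.5% and 69.8% lower. After rescaling there were 3 higher and none lower at day 3, and 6 and 1 at day 5. The shares over all features were then 23.9% and 27.5% higher, and 24.2% and 26.9% lower. ATF3, which ATF4 and DDIT3 are known to induce, was at 3.57 TPM untreated, 6.77 at day 2, 4.33 at day 3 and 7.41 at day 5, and was called higher at day 2 (0.76) and day 5 (0.85) on both scales. ATF5 averaged 266.5 TPM untreated and 349 TPM at day 2. It was called lower at day 3 on the deposited scale (-0.51) and called higher at day 2 and day 5 after rescaling (0.62 and 0.81). CEBPB, at 12.1 TPM untreated, was not called against untreated on the deposited scale but was called higher at day 2 and day 5 after rescaling (0.63 and 1.35), and CEBPG was called lower there at day 3 and day 5, at -0.67 and -0.71, but changed by 0.15 and 0.44 after rescaling. CEBPA was called lower on all 3 days on the deposited scale and at day 5 after rescaling, where the changes were -1.24 and -0.57.

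The machinery around eIF2α contained genes called on both scales. Among 17 tested, EIF2AK2 (PKR) and the PERK inhibitor DNAJC3 were called higher at day 2 on both scales, at 0.87 and 0.52 on the deposited scale. As deposited these 2 were called higher and 6 lower at day 2, where 8.03% and 23.2% of all features were. After rescaling 3 were called higher and none lower at day 2, where 12.9% and 11.4% of all features were. The later EIF2AK2 change depended on the scaling, at -0.63 and called lower at day 5 as deposited but 0.52 and called higher after rescaling. At day 5, 15 of the 17 were called lower as deposited and 9 after rescaling, where 69.8% and 26.9% of all features were. These 9 were called lower on both scales: EIF2AK1 (HRI), the phosphatase genes PPP1CA and PPP1R15B, the eIF2 subunits EIF2S1 and EIF2S3, and EIF2B1, EIF2B3, EIF2B4 and EIF2B5 of the exchange factor. EIF2B3 had the largest deposited fall of the list at day 5 (-2.24) and PPP1CA at day 3 (-1.66). EIF2S1, which encodes eIF2α itself, averaged 370.5 TPM untreated, 238.8 at day 2 and 89.6 at day 5, a day 5 change of -2.04 on the deposited scale and -0.83 after rescaling. EIF2AK4 (GCN2), the amino acid sensor, averaged 12.2 TPM untreated and 16.3 TPM at day 2. Its day 5 change was -0.83 on the deposited scale, called lower, and 0.27 after rescaling, not called. After rescaling 3 of the 17 were called higher at day 5, with EIF2A highest (1.33), where 27.5% of all features were. The list median at day 5 was -1.74 as deposited, against -0.99 for all features, and -0.57 after rescaling, against -0.02.

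In the IRE1-XBP1 arm, with 18 genes tested, DNAJB9 (ERdj4), an ER co-chaperone induced by spliced XBP1, was called higher on all 3 days on both scales, from 57.4 TPM untreated to 131 at day 2 and 90.01 at day 5. HERPUD1 (1.42), EDEM2 (0.55) and MAP3K5 (0.52) were called higher at day 2 on both scales. At day 2, 4 of the 18 were called higher and 2 lower as deposited, where 8.03% and 23.2% of all features were. After rescaling there were 6 and 1, where 12.9% and 11.4% of all features were. As deposited 12 were called lower at day 3 and 13 at day 5, where 61.5% and 69.8% of all features were. After rescaling 6 were called higher and 5 lower at day 3, against 23.9% and 24.2% of all features. At day 5 it was 6 each, against 27.5% and 26.9%. XBP1 itself averaged 1547 TPM untreated, 1189 at day 2, 644 at day 3 and 366 at day 5, and was called lower on both scales at day 5, at -2.09 and -0.87. RTCB, the ligase that joins XBP1 exons, was called lower on all 3 days on both scales. The deposited falls were largest for SEC24D at day 3 (-1.81) and SSR1 at day 5 (-2.19), both called on both scales. In the ATF6 arm, with 13 genes tested, CRELD2, HSP90B1 and MANF were called higher at day 2 on both scales and none lower. These were the 3 called higher as deposited, and 7 were after rescaling, where 8.03% and 12.9% of all features were. At day 5 all 13 were called lower on the deposited scale and 2, CALR and SDF2L1, after rescaling, where 69.8% and 26.9% of all features were called lower. HSPA5 was called lower as deposited (-1.66) and not after rescaling (-0.44). Of 7 listed transcripts that IRE1 is known to cut, only 3 passed the filter: PMP22 was called lower on all 3 days on both scales, HGSNAT was called higher at day 2 on both, and BLOC1S1 was near its untreated level on the deposited scale (-0.02, -0.15 and 0.01) but called higher at day 3 and day 5 after rescaling (0.71 and 1.23).

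Of 9 tested genes of cell death that DDIT3 is reported to control, BBC3 (PUMA) and BCL2 were called higher on all 3 days on both scales. At day 2, 3 of the 9 were called higher and none lower on either scale. At day 3 there were 5 higher and 4 lower as deposited, and 4 of each at day 5. After rescaling there were 5 higher and 1 lower at day 3, and 6 and 1 at day 5. Of all features 8.03%, 7.59% and 7.73% were called higher on the 3 days as deposited, and 12.9%, 23.9% and 27.5% after rescaling. Called lower were 23.2%, 61.5% and 69.8% on the 3 days as deposited, and 11.4%, 24.2% and 26.9% after rescaling. BBC3 went from 2.31 TPM untreated to 5.26, 5.24 and 6.71 TPM on the 3 days. BCL2, a survival gene that DDIT3 is known to repress, went from 3.81 TPM to 15.3, 12.2 and 13.4 TPM, with a day 2 change of 1.77. BCL2L11 (BIM) was called higher at day 2 and day 3 on both scales. PMAIP1 (NOXA), at 10.4 TPM untreated and 9.35 at day 2, reached 17.8 TPM at day 3 and 27.4 at day 5, called higher at those days on both scales, as was CASP4. The ER oxidase ERO1A was called lower at day 3 and day 5 on both scales, from 35.8 TPM untreated to 9.06 TPM at day 5. The death receptor TNFRSF10B (DR5) changed by -0.02, -0.61 and -0.56 on the deposited scale, the last 2 called lower, and by 0.19, 0.19 and 0.57 after rescaling, the last called higher.

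**Figure D5:**
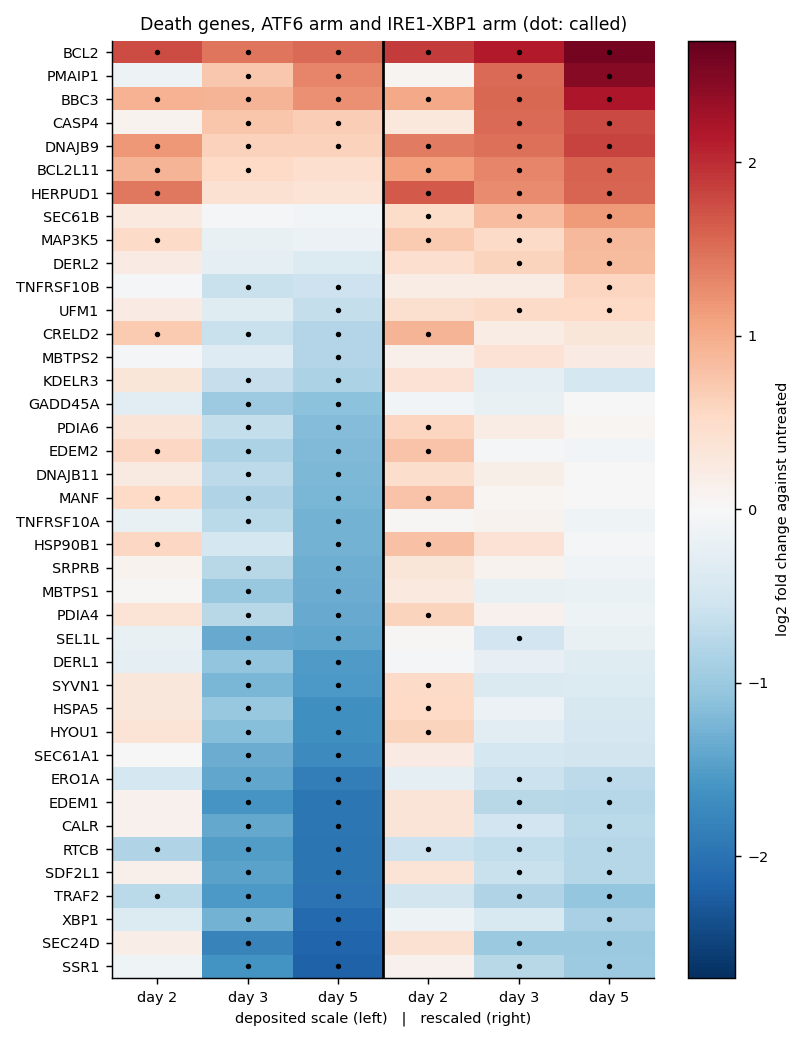
Log2 fold change against untreated cells (colour) of the tested genes of the cell death list, the ATF6 arm and the IRE1-XBP1 arm at day 2, day 3 and day 5, on the deposited scale (left columns) and after rescaling (right columns), with a dot where the gene was called. BCL2, BBC3 and DNAJB9 are called higher in all 6 columns, and all 13 ATF6 arm genes are called lower at day 5 on the deposited scale, against 2 after rescaling.

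Of 15 listed paralogs of the members, 12 passed the filter, and ERN2, DDIT4L and SESN3 did not. ATF6B averaged 30.4 TPM untreated and 41.2 TPM at day 2 and was called higher on all 3 days after rescaling (0.65, 0.52 and 0.52) but not at day 2 or day 3 as deposited, where day 5 was -0.65 and called lower. TRIB2 was called lower at day 3 and day 5 on both scales, falling from 31.8 TPM untreated to 7.004 at day 5, while TRIB1 was called lower there on the deposited scale only, at -0.54 and -0.76. CHAC2 was at 56.1 TPM untreated, 36.8 at day 2, 50.9 at day 3 and 39.96 at day 5. Its day 2 change of -0.60 was called lower on the deposited scale but was -0.37 and not called after rescaling, where day 3 and day 5 were called higher (0.71 and 0.72). SESN1 was at 17.4 TPM untreated and 11.8 at day 5, with -0.53 at day 5 on the deposited scale, called lower, and 0.62 after rescaling, called higher. Among 8 other restraints of mTORC1, all 8 were called lower at day 3 and day 5 on the deposited scale, and CASTOR2, DEPDC5 and NPRL3 on both scales, with NPRL3 lowest as deposited (-1.37 and -1.64). Of all features 61.5% and 69.8% were called lower at these days as deposited, and the list medians of -0.78 and -1.19 stood beside -0.73 and -0.99 for all features. After rescaling 3 of the 8 were called lower at each day, where 24.2% and 26.9% of all features were. At day 5, 1 was called higher, with AKT1S1 highest (0.53), where 27.5% of all features were. The rescaled list medians were -0.08 and -0.10, against -0.03 and -0.02 for all features.

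Features that tracked a member most closely over the 12 libraries are given as a description. By Pearson's r of log2(TPM + 1) over the 12 libraries, which share 4 group means, DDIT3 was closest to PTPRZ1 (r = 0.975), AC012181.1 (0.975) and LINC01145 (0.971). ERN1 was closest to ZDHHC24 (0.984), HERPUD1 (0.970) and PDE10A (0.967), and EIF2AK3 to RNF122 (0.992), ZNF275 (0.990) and CCDC149 (0.988). PPP1R15A followed ZFP36L1 (0.988), CAMK1D (0.983) and H6PD (0.977). ATF4 followed IGLC1 (0.970), an immunoglobulin light chain constant gene, GAS6 (0.949) and ID3 (0.943). TRIB3 and DDIT4 had VEGFA in common among their closest 3, at 0.963 and 0.965. For ATF6 the closest were TARS1 (0.995), HSD17B12 (0.993) and MRPS5 (0.993), and after rescaling the r with HSD17B12 and MRPS5 was 0.05 and -0.14. CHAC1 followed GRN (0.982), BRD3OS (0.982) and SYNGR2 (0.982), and SESN2 followed AL365181.2 (0.977), ZFAND3 (0.971) and SH3RF1 (0.970). After rescaling these r were 0.888, 0.895 and 0.600 for CHAC1, and 0.74, 0.847 and 0.957 for SESN2. PTPRZ1, PDE10A and AL365181.2 were low, with group means of at most 1.445, 1.344 and 1.476 TPM.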

How the data were processed

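Total RNA of MM1S cells was sequenced in 12 libraries, from 200 ng of RNA each, to a depth the labels give as over 60 M paired-end reads per library. The submitters' processing notes name FastQC, Trimmomatic, STAR, Salmon and the build hg38, and the annotation and strand setting are not given in the sources used here. The authors deposited log2(TPM + 1) values for 59276 features, without counts, so the number of reads behind each value is unknown, and only the spread of the 3 libraries of a group gives its precision. The 11939 features that reached a TPM of 1 in 3 or more libraries were fitted with limma 3.58.1 in R 4.3.3, with 1 mean per group over all 12 libraries and a mean-variance trend, and its two-sided p-values were corrected over all 11939 after Benjamini and Hochberg. The fit and the permutation test were tested on simulated data with known differences. Ratios of 2 genes used log2 TPM without a pseudocount and an exact permutation test. Gene positions came from GENCODE release 29 on GRCh38 and sequences from RefSeq on GRCh38.p14. Named were all 10 members, the largest rise and fall called in each list, a set of pathway genes, the paralogs, and the 3 closest features per member; other genes were named to complete short counts after their values were seen. The members and gene lists were chosen with earlier results of these data known. Alternatives were rescaling, a pseudocount of 0.1, no filter, a TPM minimum of 5, no trend, only the 2 groups compared and leaving out each library; removing ribosomal protein and mitochondrial features and leaving out both H8 and H12 were added after seeing the data. The labels' replicates carry no shared numbers. Figures were drawn with matplotlib 3.10.9.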

Additional observations from a re-analysis of the deposited data

Results flagged for a closer look

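The change of DDIT4 differed between day 2 and day 3, by -1.18 on the deposited scale (limma, adjusted p = 9.51e-06), with all 3 day 3 libraries below all 3 day 2 libraries. It was -0.56 after rescaling and lay between -1.27 and -1.08 when each library was left out. The change of DDIT3 differed between day 3 and day 5, by 0.85 on the deposited scale (limma, adjusted p = 0.000272), with all 3 day 5 libraries above all 3 day 3 libraries. It was 1.21 after rescaling and lay between 0.77 and 0.91 when each library was left out. Ribosomal protein and mitochondrial shares rose over the same days, and without those features the differences were -0.87 for DDIT4 and 1.11 for DDIT3, with both calls kept.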

How the results depend on the processing

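No paired analysis was possible because the labels number the libraries H1 to H12 and no number recurs between groups. TPM keeps no counts, so what sequencing depth limits cannot be given.

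Scaling moved the results most. Counts of members called higher and lower were 5 and 0 at day 3, 8 and 0 at day 5 after rescaling, 1 lower from day 2 to day 3 and 4 higher from day 3 to day 5. Without ribosomal protein and mitochondrial features they were 3 and 1 at day 3, 5 and 0 at day 5, and 3 higher from day 3 to day 5. A pseudocount of 0.1 gave 2 higher from day 3 to day 5. Shares of all features called were computed for the deposited and rescaled fits only, so the counts of these other settings have no background beside them. Of 50 single changes, 15 kept direction and call after rescaling and 19 changed direction. Rescaled values that changed direction were 0.17 (ATF6) at day 2; 0.59 (EIF2AK3), 0.44 (ATF6), 0.01 (TRIB3), 0.15 (CHAC1), 0.82 (PPP1R15A) and 0.48 (SESN2) at day 3; 0.61 (EIF2AK3), 0.36 (ATF6), 0.65 (TRIB3), 0.13 (CHAC1), 1.09 (PPP1R15A), 0.96 (SESN2) and 0.61 (DDIT4) at day 5; 0.27 (ATF6), 0.32 (ATF4) and 0.49 (DDIT3) from day 2 to day 3; and 0.01 (EIF2AK3) and 0.28 (PPP1R15A) from day 3 to day 5. Without ribosomal protein and mitochondrial features they were 0.10 (ATF6) at day 2; 0.21 (EIF2AK3), 0.07 (ATF6), 0.45 (PPP1R15A) and 0.15 (SESN2) at day 3; 0.11 (EIF2AK3), 0.20 (TRIB3), 0.62 (PPP1R15A), 0.54 (SESN2) and 0.12 (DDIT4) at day 5; 0.01 (ATF4) and 0.19 (DDIT3) from day 2 to day 3; and 0.17 (PPP1R15A) from day 3 to day 5. The cause was not tested.

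With each library left out, members called higher ranged from 4 to 5 at day 2 and from 1 to 2 from day 3 to day 5, and members called lower from 2 to 3 at day 3, 3 to 5 at day 5 and 0 to 2 from day 3 to day 5, where the 2 came without H12. SESN2 was called higher at day 2 without H1, H2 or H6, and TRIB3 lower at day 5 without H2 or H12. Changes near 0 turned sign in these fits: PPP1R15A ranged from -0.08 to 0.05 at day 3, -0.29 to 0.02 at day 5 and -0.28 to 0.04 from day 3 to day 5, SESN2 from -0.31 to 0.03 at day 5 and -0.03 to 0.31 from day 3 to day 5, and ATF4 from -0.03 to 0.06 from day 3 to day 5, and 0.00 without H8 and H12. The ratio of CHAC1 to ATF4 ranged from -0.83 to -0.59, ERN1 to EIF2AK3 from 0.54 to 0.68, DDIT3 to HSPA5 from 1.98 to 2.40 and ATF6 to EIF2AK3 from -0.42 to -0.32, with the calls lost in 3, 2, 2 and 7 of 12 tests, and the last was -0.36 (adjusted p = 0.0682) with log2(TPM + 1). No filter, a TPM minimum of 5, no trend and only the groups compared kept all 50 single changes and their calls.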
